A study of Mus musculus with 18 samples.

Results

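The sites of the histone demethylase KDM2A were compared with the sites of its substrate mark, dimethylated lysine 36 of histone H3 (H3K36me2), in B cells lacking miR-155. The comparison used the peak lists of the 6 KO libraries with an immunoprecipitation, 3 for KDM2A and 3 for H3K36me2, out of 18 samples in the series. These lists held 242106 of the 590705 peaks of the series. The cells were primary splenic B cells from Mir155-deficient mice, enriched by removing cells with CD43, Ter119 or CD4, and all cultures had received anti-CD40, anti-IgM and IL-4 at 1% oxygen for 2 days. Replicate 1 of each antibody was labelled male and the other 2 female. The mice were C57BL/6. Their age is given in the sources used here only as a range over the study's mice, and the labels did not say whether both antibodies of a replicate number were used on the same culture, so the p-values measure only the spread between these samples. WT libraries, from Mir155-sufficient mice cultured in the same way, were used only where a difference between genotypes is stated.

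KDM2A removes methyl groups from H3K36me2. It carries a CXXC zinc finger that binds CpG dinucleotides without DNA methylation, which are dense in the CpG islands found at many promoters. H3K36me2 is laid down mainly by the NSD enzymes and ASH1L, and is known as a broad mark of intergenic regions and of the bodies of genes. MiR-155 is a microRNA induced in activated B cells, and Kdm2a is one of the targets the study examined.

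The contrast in base composition between the sites is shown first with 6 sequences of 300 bases (GRCm38). The Hspa1a promoter, from RefSeq and GRCm38.p6, runs from 250 bases before the start site to 50 after it. The others are centred on the strongest peak at genes picked by the highest KDM2A fold without H3K36me2, or by the highest H3K36me2 coverage of the gene body. Capitals mark each CpG.
Hspa1a promoter, chr17:34972107-34972406, minus strand: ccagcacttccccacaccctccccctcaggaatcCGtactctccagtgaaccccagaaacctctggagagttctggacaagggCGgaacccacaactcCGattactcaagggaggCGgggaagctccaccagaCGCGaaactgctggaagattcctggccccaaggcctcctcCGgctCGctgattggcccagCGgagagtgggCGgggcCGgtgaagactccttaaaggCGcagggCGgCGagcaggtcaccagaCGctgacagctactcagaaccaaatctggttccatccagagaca
Centre of the KDM2A peak over Gm20481 and Hspa1a, plus strand, chr17:34969421-34969720: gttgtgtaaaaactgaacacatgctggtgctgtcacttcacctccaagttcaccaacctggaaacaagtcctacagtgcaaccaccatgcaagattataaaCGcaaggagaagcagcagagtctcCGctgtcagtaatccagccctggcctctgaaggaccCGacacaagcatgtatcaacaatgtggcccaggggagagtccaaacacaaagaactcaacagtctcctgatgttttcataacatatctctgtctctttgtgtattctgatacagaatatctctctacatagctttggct
Centre of the KDM2A peak between Cpsf4 and Ptcd1, plus strand, chr5:145167096-145167395: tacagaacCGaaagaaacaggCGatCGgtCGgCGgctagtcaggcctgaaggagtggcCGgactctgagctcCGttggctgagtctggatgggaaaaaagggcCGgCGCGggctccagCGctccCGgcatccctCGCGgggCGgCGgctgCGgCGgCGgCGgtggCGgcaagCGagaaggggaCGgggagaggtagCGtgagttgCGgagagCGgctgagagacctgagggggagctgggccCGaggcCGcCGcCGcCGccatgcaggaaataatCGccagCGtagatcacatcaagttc
Centre of the KDM2A peak at Rbm15b, plus strand, chr9:106886874-106887173: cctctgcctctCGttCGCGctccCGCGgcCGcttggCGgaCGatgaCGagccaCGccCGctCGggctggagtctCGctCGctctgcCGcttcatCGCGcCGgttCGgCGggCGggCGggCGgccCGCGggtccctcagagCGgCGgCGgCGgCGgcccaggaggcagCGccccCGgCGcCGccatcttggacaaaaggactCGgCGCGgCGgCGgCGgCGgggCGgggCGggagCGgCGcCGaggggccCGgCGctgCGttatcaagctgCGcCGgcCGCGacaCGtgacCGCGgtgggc
Centre of an H3K36me2 peak in Pigr, plus strand, chr1:130833102-130833401: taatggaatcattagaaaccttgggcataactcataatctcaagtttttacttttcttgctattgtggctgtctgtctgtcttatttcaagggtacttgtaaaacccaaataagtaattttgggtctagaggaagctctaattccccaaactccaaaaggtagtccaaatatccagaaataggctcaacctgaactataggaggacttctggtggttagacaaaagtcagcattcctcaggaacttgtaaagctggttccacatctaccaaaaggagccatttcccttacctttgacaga
Centre of an H3K36me2 peak in Ifi202b, plus strand, chr1:173967401-173967700: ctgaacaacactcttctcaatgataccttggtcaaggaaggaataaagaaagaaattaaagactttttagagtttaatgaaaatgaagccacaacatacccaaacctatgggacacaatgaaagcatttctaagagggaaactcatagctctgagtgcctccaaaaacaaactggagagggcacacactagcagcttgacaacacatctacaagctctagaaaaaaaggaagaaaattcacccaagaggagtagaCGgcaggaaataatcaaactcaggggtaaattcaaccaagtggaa
The Hspa1a promoter held 15 CpG and lay under KDM2A peaks over all 300 bases in each of the 3 lists. The KDM2A peak over Hspa1a and Gm20481 was 6296 bp wide, from 34966423 to 34972718 on chromosome 17, and the 300 bases at its centre held 3 CpG and no island. The peak between Cpsf4 and Ptcd1, transcribed in opposite directions, was 551 bp wide and its centre held 33 CpG. The centre of the Rbm15b peak held 56 CpG. The H3K36me2 peaks in Pigr and Ifi202b were 270 and 244 bp wide, and held 0 and 1 CpG in the 300 bases around their centres. The Cpsf4 and Rbm15b sequences were added after the values had been seen, because the other KDM2A peaks of this set were several kb wide with centres outside the island.

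The depth behind the peaks is unknown, since a list gives no read counts, and no counting interval can be given. The KDM2A lists held 15667, 15387 and 21705 peaks and the H3K36me2 lists 106720, 37447 and 45180. H3K36me2 replicate 1 stood apart from the other 2 lists of its antibody, with the most peaks. Differences that it moved by much are also given without it, while the counts of marked genes and of gene lists include it. The antibodies also differed in the chromatin used per immunoprecipitation, 13.5 µg for KDM2A and 1 µg for H3K36me2, so antibody, chromatin amount and target cannot be told apart. Peak lists hold no RNA, so the cell type could be checked only by where peaks lay. KDM2A was called in at least 2 of 3 lists at the promoters of 7 of 8 B cell marker genes, 1 of 8 T cell markers and 0 of 8 myeloid markers, of which 2, 0 and 1 had a CpG island. H3K36me2 was called at 5, 3 and 2 of the same promoters. Over all genes the shares were 39.2% for KDM2A and 15.6% for H3K36me2, and KDM2A was at 7.09% of genes without an island.

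The first question was where the demethylase and its mark lie relative to genes. KDM2A peaks lay mostly at promoters and H3K36me2 peaks mostly away from them. Peak centres up to 2 kb from an annotated transcription start site (TSS) were counted as promoter/TSS, those elsewhere in a gene as intragenic, and the remainder as intergenic. The promoter/TSS share was 61.1, 60.4 and 53.4% in the KDM2A lists and 16.6, 14.3 and 14.2% in the H3K36me2 lists. The groups did not overlap, with means of 58.3 ± 4.25% and 15.1 ± 1.37% (SD, n = 3 each, exact permutation p = 0.1, two-sided, which 3 against 3 libraries cannot go below, adjusted p = 0.11 over 11 measures). The intragenic share was 25.1 ± 2.28% for KDM2A and 43.9 ± 1.54% for H3K36me2. The intergenic share was 16.6 ± 2.01% and 41.0 ± 2.89%. Both differences had the same exact permutation p of 0.1, with no overlap between antibodies.

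**Figure D1:**
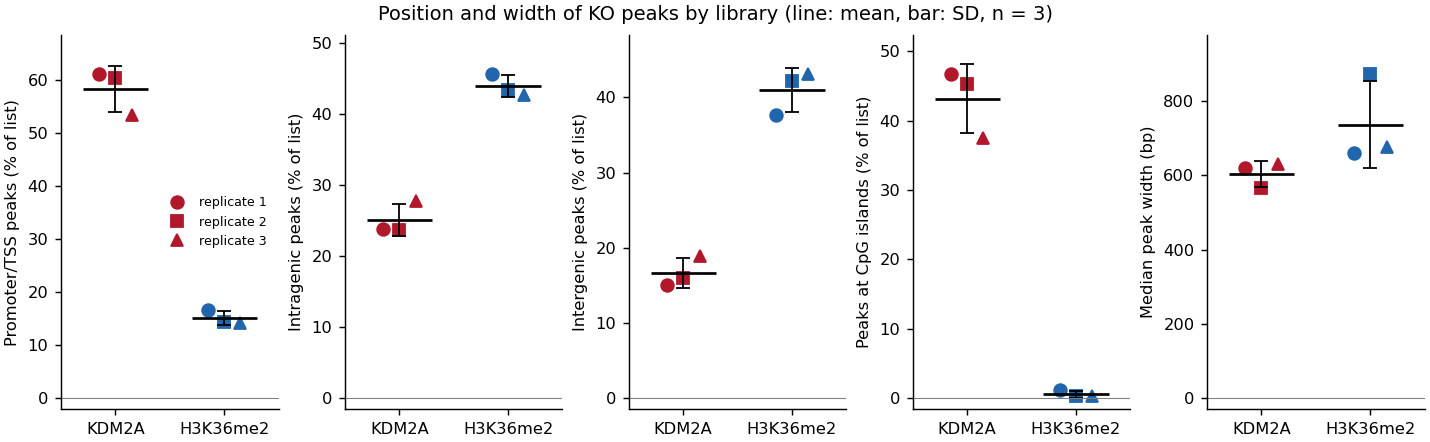
Share of peaks in each position class, share of peaks at CpG islands (all in % of a list) and median peak width (bp) for the 3 KDM2A and 3 H3K36me2 KO libraries. Symbols are libraries, lines are means and bars are SD. The promoter/TSS share of the lowest KDM2A list (53.4%) lies above that of the highest H3K36me2 list (16.6%).

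The same order held for distance. The median distance from a peak centre to the nearest TSS was 636, 641 and 1501 bp in the KDM2A lists and 9181, 10389 and 10342.5 bp in the H3K36me2 lists. KDM2A replicate 3, the longest KDM2A list, was the farthest of its group but still closer than every H3K36me2 list. Peaks within 1 kb of a TSS made up 46.0 to 54.4% of the KDM2A lists and 6.63 to 8.77% of the H3K36me2 lists. Peaks 10 to 100 kb from a TSS made up 14.9 to 19.5% and 45.5 to 48.6%. Within genes, 14.8 to 17.7% of the intragenic KDM2A centres lay in exons, against 4.06 to 5.86% of the H3K36me2 centres, so introns held most intragenic sites of both.

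CpG islands were common under KDM2A and rare under H3K36me2. Of the KDM2A peaks, 46.7, 45.3 and 37.5% overlapped an island, and of the H3K36me2 peaks 1.10, 0.310 and 0.241% (means 43.2 ± 4.94% and 0.549 ± 0.475%, SD, n = 3 each, two-sided exact permutation test, p = 0.1, adjusted p = 0.11). Counted the other way, KDM2A peaks touched 44.4, 42.0 and 49.6% of the 16943 islands and H3K36me2 peaks 6.91, 0.685 and 0.643%. The median ratio of observed to expected CpG in the 300 bp around the centre was 0.380 ± 0.052 for KDM2A and 0.152 ± 0.011 for H3K36me2. The H3K36me2 lists were at 0.165, 0.146 and 0.146 and the KDM2A lists at 0.412, 0.407 and 0.319. Masked repeats made up 12.3 to 14.0% of the bases under KDM2A peaks, 26.7 to 29.3% of those under H3K36me2 peaks and 36.4% of the genome.

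The full H3K36me2 lists covered more of the genome than the KDM2A lists, a difference that depended on the peaks kept. The lists covered 98.9, 43.3 and 39.4 Mb for H3K36me2 and 13.4, 11.8 and 19.5 Mb for KDM2A (60.5 ± 33.3 and 14.9 ± 4.05 Mb, SD, n = 3 each, exact permutation p = 0.1). Without H3K36me2 replicate 1 the difference fell from 45.6 to 26.4 Mb and the groups still did not overlap. When every list was trimmed to the same number of its strongest peaks, H3K36me2 covered 17.1 ± 3.01 and KDM2A 13.6 ± 1.92 Mb (SD, n = 3 each, exact permutation p = 0.3). Among peaks with −log10 q of at least 2, KDM2A minus H3K36me2 was −2.30 Mb (exact permutation p = 1, n = 3 each), and KDM2A covered more than the same-numbered H3K36me2 list in replicates 2 and 3.

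Within single lists the median peak width differed little. The median width was 620, 565 and 630 bp for KDM2A and 661, 873 and 677 bp for H3K36me2 (exact permutation p = 0.1). H3K36me2 replicate 2 accounted for much of this gap, which was 132 bp over all lists and 64.0 bp without that library. Among peaks with −log10 q of at least 2 the direction turned, with KDM2A peaks 52.0 bp wider on average (exact permutation p = 0.7, n = 3 each). Set against the same-numbered H3K36me2 list, the differences were 38, −162 and 280 bp. KDM2A peaks were themselves wider at islands, with medians of 766, 704 and 849 bp against 495, 456 and 507 bp elsewhere. They were also stronger there, with a median fold over the control background of 2.97, 2.91 and 2.95 against 2.68, 2.64 and 2.60. Fold is the authors' enrichment of a peak over its background and is not scaled between libraries.

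Sites that recurred across replicates were more sharply divided than single-list sites. Merging the 3 KDM2A lists gave 34455 regions, of which 68.5% came from 1 list, 13.4% from 2 and 18.2% from all 3. The promoter/TSS share rose from 30.2% of the 1-list regions to 66.0% and 87.5%, and the island share from 9.05% to 50.4% and 83.5%. For H3K36me2, 137515 regions were found, with 77.6%, 14.9% and 7.46% in 1, 2 and 3 lists. Their intergenic share was 34.8%, 40.6% and 50.8%, and their median width 559, 1433 and 3189 bp. The KDM2A regions had median widths of 423, 944 and 1537 bp in 1, 2 and 3 lists. Wider merged regions have more chance to meet a peak of another list, and this was not tested.

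Around the TSS of the 12507 protein-coding genes with an island in the promoter window, KDM2A was highest where H3K36me2 was lowest. KDM2A peaks covered 35.0, 32.5 and 41.7% of the bases within 500 bp of the TSS and 2.28, 1.88 and 3.47% of those 2 to 5 kb upstream. H3K36me2 covered 3.98, 0.712 and 0.699% within 500 bp, 10.6, 4.22 and 3.94% at 2 to 5 kb upstream and 5.49, 1.86 and 1.63% at the same distance downstream. The lowest H3K36me2 coverage lay in the first 250 bp of the gene in every list and the highest between 1 and 1.5 kb upstream. At the 9248 genes without an island KDM2A reached only 2.80, 2.60 and 4.45% within 500 bp. H3K36me2 covered 6.14, 1.96 and 1.87% there, 6.16, 2.76 and 2.56% at 2 to 5 kb upstream and 4.89, 1.80 and 1.68% at 2 to 5 kb downstream, so the TSS was not the lowest point.

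**Figure D2:**
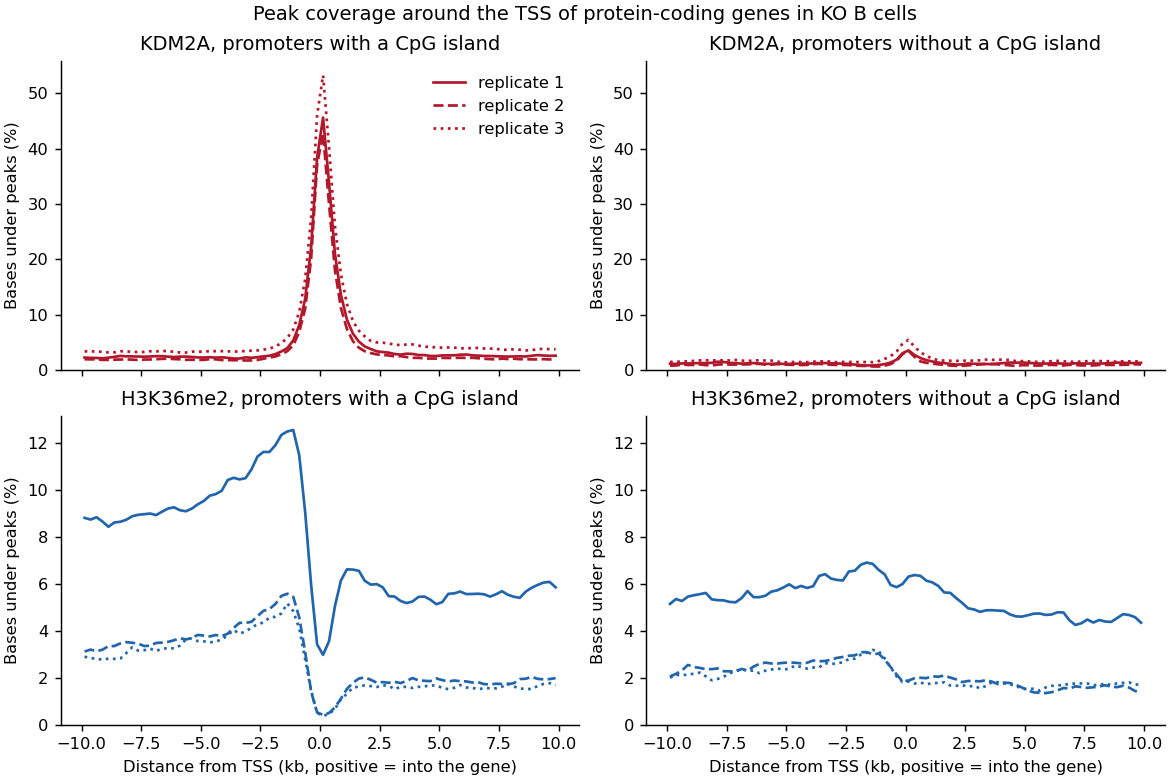
Percent of bases under peaks in 250 bp bins within 10 kb of the TSS, for KDM2A (top) and H3K36me2 (bottom), at promoters with (left) and without (right) a CpG island. Each line is a KO library. KDM2A peaks in the first 250 bp of island genes at 45.6, 42.8 and 53.2%, where H3K36me2 is at 2.98, 0.423 and 0.377%.

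The trough at island promoters was present with and without KDM2A. At the 7878 island promoters with KDM2A in at least 2 of 3 lists, H3K36me2 within 500 bp of the TSS was 0.348, 0.140 and 0.152 of its level 2 to 5 kb upstream. At the 4629 island promoters without KDM2A the ratio was 0.572, 0.392 and 0.377. The ratio was lower with KDM2A in all 3 H3K36me2 lists, by 0.234 ± 0.016 (SD, n = 3, two-sided exact sign-flip permutation test, p = 0.25, the smallest 3 differences allow). Against the level 2 to 5 kb downstream the order was not the same in every list, with ratios of 0.742, 0.331 and 0.399 with KDM2A and 0.663, 0.669 and 0.566 without. The upstream level itself was higher beside promoters with KDM2A, at 14.6, 5.95 and 5.56% against 3.75, 1.28 and 1.19%. At the TSS the mark was also higher with KDM2A (5.06, 0.835 and 0.845% against 2.14, 0.501 and 0.449%), so the lower ratio to the upstream level went with a higher level both at the TSS and upstream.

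The next question was how often enzyme and mark share bases. Most KDM2A peaks did not touch an H3K36me2 peak of the same replicate number, since 23.9, 6.43 and 9.15% of them did. Under H3K36me2 lay 12.8, 3.53 and 4.32% of the KDM2A bases, beside 3.73, 1.63 and 1.49% of the genome, so the share was 3.44, 2.16 and 2.90 times that of the genome. The high values of replicate 1 moved with the H3K36me2 list, because 11.6% of the KDM2A bases of replicate 2 and 13.0% of those of replicate 3 also lay under H3K36me2 replicate 1. Without replicate 1 the mean overlap fell from 13.2% of peaks to 7.79%. With lists trimmed to the same number of peaks it was 5.02, 3.02 and 4.02%.

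The amount of mark on a KDM2A site differed between kinds of site. At island promoters, 6.11, 1.01 and 1.19% of the KDM2A bases were under H3K36me2, against 11.7, 4.64 and 4.04% in the flanks 2 to 5 kb from the centre. At promoter sites without an island the values at the peak (17.3, 4.29 and 5.07%) were close to those in the flanks (15.0, 5.28 and 5.03%). Intragenic sites without an island gave 18.1, 5.00 and 5.63%. Intergenic sites without an island carried the most mark, 32.1, 12.5 and 13.3% of their bases, which exceeded their flanks (25.8, 9.96 and 10.6%) in each replicate. These intergenic sites numbered 2189, 2308 and 3911, and 40.6, 15.6 and 18.7% of them touched an H3K36me2 peak. The difference from island promoters was 16.5 ± 8.20 percentage points (SD, n = 3, exact sign-flip permutation p = 0.25, the smallest possible).

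**Figure D3:**
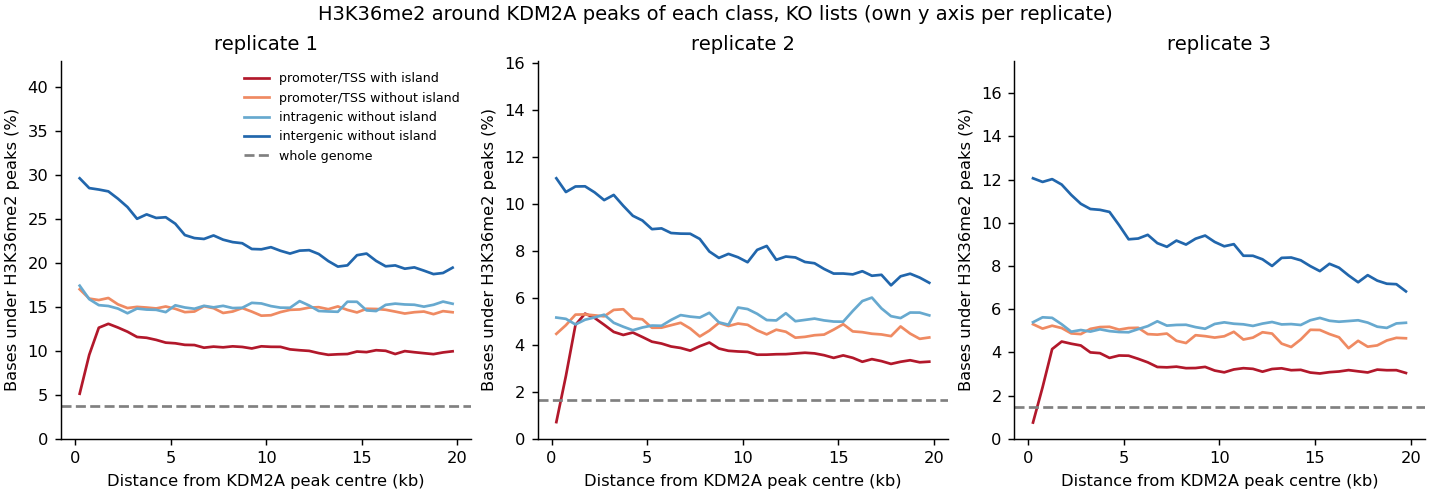
Percent of bases under H3K36me2 peaks in 500 bp bins from the centre of KDM2A peaks outward, both sides averaged, for 4 classes of KDM2A peak in each KO replicate. The dashed line is the share of the genome under H3K36me2 (3.73, 1.63 and 1.49%), and each replicate has its own y axis. The island promoter line starts below the other 3 and rises within 2 kb, while the intergenic line is highest at the centre and declines outward.

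The division between sites also held for recurrent regions. Of 10858 KDM2A regions found in at least 2 lists, 1741 (16.0%) met an H3K36me2 region of at least 2 lists, and these H3K36me2 regions were 5.49% of the 30772 of their kind. The overlap was 9.05% for the 7212 KDM2A regions at island promoters and 55.1% for the 784 intergenic regions without an island.

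Counted by gene promoter, the mark was more frequent where KDM2A was also called. A promoter window ran 2 kb to either side of the TSS. Among promoters with KDM2A, 51.8, 20.8 and 21.7% also held an H3K36me2 peak, and among the others 20.2, 7.81 and 7.28%. The difference was positive in all 3 replicates, at 19.6 percentage points on average (two-sided exact sign-flip permutation test, n = 3, p = 0.25). In a narrower window, 1 kb before to 100 bp after the TSS, the difference was 7.78 points. It was 5.47 points with lists trimmed to the same number of peaks, 3.31 points with −log10 q of at least 2 and 13.7 points without replicate 1.

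Genes were then grouped by what lay on them. KDM2A was called at the promoter of 8534 of 21755 protein-coding genes (39.2%) in at least 2 of 3 lists. H3K36me2 was called at the promoter of 3383 (15.6%) and in the body of 4933 of the 18406 genes with a body (26.8%). The body of a gene ran from 2 kb after the TSS to the gene end and was defined for genes longer than 4 kb. With the promoter and body mark joined, 4477 genes had KDM2A only, 4057 both, 2913 H3K36me2 only and 10308 neither. Without H3K36me2 replicate 1, and with both other lists required, 6286 genes had KDM2A only, 2248 both and 1733 H3K36me2 only. In single lists, 37.2, 36.2 and 42.6% of genes had a KDM2A promoter peak against 32.0, 12.5 and 13.4% with an H3K36me2 promoter peak (exact permutation p = 0.1), a difference of 19.4 points that was 25.7 points without H3K36me2 replicate 1. Genes with a body peak did not separate the antibodies, at 19.5, 18.6 and 25.8% for KDM2A and 43.3, 21.8 and 24.0% for H3K36me2 (exact permutation p = 0.3). With lists trimmed to the same number of peaks the direction turned, at 18.8 ± 0.429% for KDM2A and 13.7 ± 1.93% for H3K36me2 (SD, n = 3 each, exact permutation p = 0.1).

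All 3 KDM2A lists covered more of the promoter window than all 3 H3K36me2 lists at 3761 genes (17.3% of 21755), and the reverse held at 386 (1.77%). Of the 3761, 3636 had a CpG island, and of the 386, 86 had one. Since no single gene can pass a test with 3 against 3 libraries, these are counts and not calls. The smaller count was sensitive to single lists, and was 818 without H3K36me2 replicate 2 and 768 without replicate 3.

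Both the mark and the enzyme varied with gene length, in different ways. The percent of genes with an H3K36me2 body peak was 5.61% for genes of 4 to 10 kb, 29.8% for 20 to 50 kb, 61.7% for 100 to 200 kb and 50.0% above 200 kb. A KDM2A promoter peak was found at 33.5%, 47.7%, 38.8% and 22.2% of the same genes. Genes with KDM2A and no body mark (5033) had a median span of 16.4 kb, and genes with both (2595) a median span of 58.6 kb, while 92.9% and 93.1% of them had an island. Genes with a marked body and no KDM2A (2338) were similarly long, at 46.2 kb, but 44.2% had an island. A longer body offers more bases for a peak. Per base, H3K36me2 covered 3.83, 0.898 and 0.931% of the body in genes of 4 to 10 kb and 5.35, 2.18 and 1.90% in genes of 100 to 200 kb. Above 200 kb it covered 3.66, 1.70 and 1.46%, which in replicate 1 was below the level of the shortest genes. Along the 9829 genes longer than 20 kb, H3K36me2 coverage was highest between parts 2 and 4 of 20 equal parts and lowest in the last 2 in each list.

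**Figure D4:**
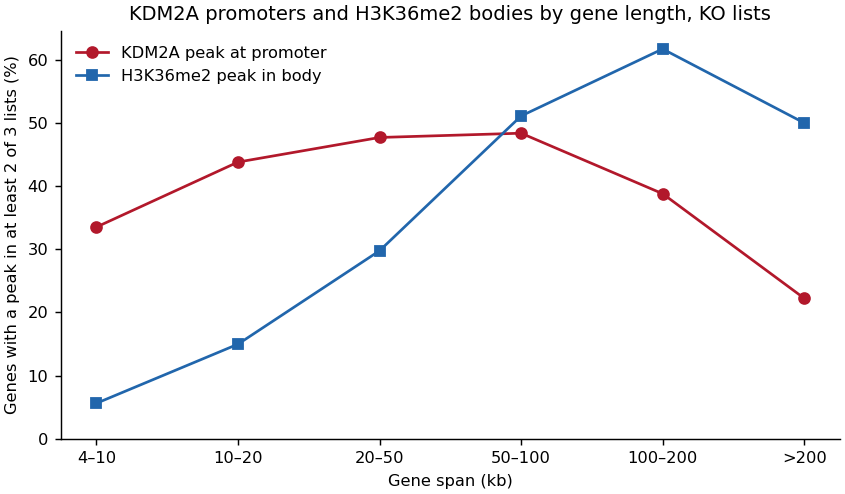
Percent of protein-coding genes with a KDM2A peak at the promoter (circles) or an H3K36me2 peak in the body (squares) in at least 2 of 3 KO lists, by gene span in kb. The H3K36me2 line rises from 5.61% to 61.7% and falls to 50.0% above 200 kb, and the KDM2A line stays between 22.2 and 48.4%.

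Most KDM2A promoters were at islands, with or without the mark. There were 1300 genes with a KDM2A promoter peak in all 3 lists and no H3K36me2 peak on promoter or body in any list, and 1250 of them had an island, beside 7878 of all 8534 genes with KDM2A. The highest mean fold was at Hspa1a, which encodes an HSP70 chaperone (chr17:34969190-34972156), and the overlapping Gm20481, which share a peak. Its fold was 3.51, 6.21 and 4.96 and it covered 930, 2570 and 2837 bp of the 4001 bp Hspa1a window. Zfp36 (chr7:28376784-28380253) encodes a protein that destabilizes mRNAs, and its KDM2A peaks covered 4001, 2922 and 4001 bp of the window with a mean fold of 4.07. Cpsf4, a subunit of the mRNA cleavage and polyadenylation factor, and Ptcd1, a mitochondrial RNA-binding protein, share 1 peak between them with a fold of 5.00, 3.89 and 3.31. Rbm15b and H2-Ke6 were also chosen. All 8 promoters chosen by this rule held an island, and the mark was at 0 bp in every list by the rule that chose them.

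The genes with the most H3K36me2 on the body were then listed. Of the 9829 genes longer than 20 kb, 2654 had a body peak in all 3 lists. The highest coverage was on Pigr (chr1:130826684-130852249), the polymeric immunoglobulin receptor of epithelia, at 54.2, 60.6 and 48.6% of the body. Ifi202b, an interferon-induced gene (chr1:173962568-173982744), was covered at 45.4, 64.7 and 40.1%. P2ry12, an ADP receptor of platelets and microglia, was covered at 47.3, 39.6 and 38.8%. Cxcr5 (chr9:44511787-44561877), the chemokine receptor that brings B cells into follicles, was at 49.8, 41.9 and 37.7%. Dthd1, Gm44511 and Ninj2 were covered at 28.5 to 58.0% in each list. None of the 8 promoters chosen by this rule held an island, although over all genes a marked body was more frequent with an island (3450 of 11247, 30.7%) than without (1483 of 7159, 20.7%). KDM2A was called at 1 of the 8 promoters in at least 2 lists, that of Cxcr5, with 0, 995 and 535 bp of the window covered.

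At 32 of 21755 genes a KDM2A and an H3K36me2 peak overlapped inside the promoter window in all 3 replicates. KDM2A alone was at the promoter of 5899 genes in all 3 lists, whatever the mark. Of the 32, 20 had an island, beside 12507 of all genes and 7878 of the 8534 with KDM2A in at least 2 lists. The highest KDM2A fold among the 32 was at Tmsb10, which encodes an actin-binding thymosin, at 4.66, 3.44 and 4.19. The mark was on 1272, 2080 and 1169 bp of its window. H2-D1, a classical MHC class I gene (chr17:35262730-35267499), had KDM2A over its whole body in all 3 lists and the mark on 1774, 1085 and 1698 bp of the promoter window. H2-Q6 showed the same arrangement, although MHC class I genes have near-identical copies between which reads cannot always be placed. Hcst and Nfkbid, neighbours on chromosome 7, shared H3K36me2 peaks. Sqstm1, the autophagy receptor p62, had the mark on 919, 719 and 933 bp, Fam167b on 1848, 1938 and 1437 bp, and Numa1, a spindle protein, on 1745, 2131 and 373 bp.

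Among the genes that write this mark, KDM2A was called at 5 of the 7 H3K36 methyltransferase promoters (71.4%). Of the 7, 6 had an island, and the share was 39.2% over all genes and 63.0% over island genes. Ash1l had KDM2A on 1661, 1659 and 1793 bp of the window and the mark on 153, 0 and 0 bp. Nsd2 had 1343, 1199 and 1568 bp with no mark at the promoter, Nsd3 1391, 1311 and 1597 bp, and Setd2, the enzyme of the trimethyl state, 2017, 1101 and 1424 bp. In these 4 genes the 3 KDM2A values lay above the 3 of the mark, as at 17.3% of all genes and 29.1% of island genes. All 4 carried an H3K36me2 body peak in at least 2 lists, on 0.201 to 4.15% of the body where present. In all, 5 of the 7 bodies were marked, beside 26.8% of all genes. The median span of the list was 86037 bp, and 51.1% of genes of 50 to 100 kb had a marked body. Nsd1 was the exception among the NSD genes. Its promoter carried both, with KDM2A on 1676, 442 and 2407 bp and the mark on 764, 0 and 823 bp, and no list marked its body. Smyd2 and Setmar, whose KDM2A peaks were found in 1 list each, were not called, and Setmar was marked on 4.65, 6.68 and 0% of its body.

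Of the 7 H3K36 demethylase genes, 5 had an island and 5 had KDM2A at the promoter, again near the 63.0% of island genes, and 4 of the 6 with a body were marked there. Their median span was 76797 bp, so the share of 51.1% again applies. The list includes Kdm4d, which is known to act on H3K9 and not H3K36, and without it 4 of 6 promoters and 3 of 5 bodies were called. Kdm2a itself carried KDM2A on 1327, 584 and 1776 bp of its promoter window (fold 3.06, 2.78 and 2.79) and no mark in the window, with 0.829, 0.331 and 0% of its body marked. Its paralog Kdm2b had 3073, 1924 and 4001 bp under KDM2A and 4.99, 0.992 and 1.27% of its body under the mark. Kdm4b (972, 781 and 648 bp) also had KDM2A above the mark in every list. This held at 3 of the 7 genes, beside 17.3% of all genes and 29.1% of island genes. Kdm4d and Riox1 were called in 2 lists. Kdm4a had a KDM2A peak in 1 list, and Kdm4c in none, with at least 1.03% of its body marked in every list. Among the 12 CXXC proteins, which share the CpG-binding finger, 10 had KDM2A at the promoter and 11 an island. Kmt2a, a histone H3K4 methyltransferase, had a fold of 3.75, 3.95 and 3.26.

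Proteins that read H3K36 methylation showed KDM2A at 10 of 11 promoters and the mark at 4 of 11 promoters and in 2 of 11 bodies, beside 39.2%, 15.6% and 26.8% of all genes. All 11 had an island, and 63.0% of island genes had KDM2A. Brpf1 had the highest KDM2A fold of these, between 3.71 and 3.84. The 2 marked bodies were those of Zmynd11 and Dnmt3a. Dnmt3a, the DNA methyltransferase that binds H3K36me2, had KDM2A on 1751, 680 and 1722 bp of its promoter and 5.23, 0.408 and 1.40% of its body marked. Among 19 Polycomb subunits, all with an island, KDM2A was at 18 promoters, H3K36me2 at 1 promoter (Ezh2) and in 9 of 17 bodies. Ring1, the ubiquitin ligase subunit, was covered by KDM2A on 2949, 4001 and 4001 bp with the mark on 204, 0 and 0 bp. Eed and Cbx7 had no mark in any list on promoter or body.

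Among B cell genes both were frequent at promoters. KDM2A was called at 24 of 30 and H3K36me2 at 18 of 30 promoters, beside 39.2% and 15.6% of all genes, and 13 of the 30 had an island. Spib, a transcription factor of B cells, had KDM2A over the whole window in all 3 lists and no mark. Xbp1, a transcription factor of plasma cells, carried both, with KDM2A on 889, 1763 and 1707 bp and the mark on 1505, 0 and 802 bp. Irf4, which acts in B cell activation, had KDM2A on 2155, 573 and 2412 bp and the mark on 1149, 0 and 352 bp. Cr2, the complement receptor, was the 1 member with the mark above KDM2A in every list, on 2282, 1993 and 691 bp against 0, 0 and 653 bp. The mark was above KDM2A in this way at 1.77% of all genes. KDM2A was above the mark at 11 of the 30 members, beside 17.3% of all genes.

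Genes of other blood lineages had few islands, 1 of 10 in each of the T cell and myeloid lists. KDM2A was at 1 of 10 T cell marker promoters, Lck, and at 1 of 10 myeloid ones, Cd68, near the 7.09% of genes without an island. H3K36me2 was at 3 of 10 and 2 of 10 of these promoters, beside 15.6% of all genes and 11.6% of genes without an island. It lay in the body of 3 of 10 and 4 of 6, beside 26.8% of all genes and 9 of 29 of the B cell genes. Itgam, which encodes CD11b, was marked on 34.6, 20.9 and 23.7% of the body with KDM2A absent from its promoter window, and Zap70, a T cell receptor kinase, on 34.4, 5.55 and 7.99%.

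Hypoxia response and mitochondrial genes nearly all had an island, and the share of island genes with KDM2A was 63.0%. All 16 hypoxia response genes, each with an island, had KDM2A at the promoter. The mark was at 6 of 16 promoters (37.5%, beside 15.6% of all genes and 18.4% of island genes). It was in 2 of 14 bodies (14.3%), beside 26.8% of all genes. The median span of the list was 20766 bp, and 29.8% of genes of 20 to 50 kb had a marked body. Ddit4, a stress-induced inhibitor of mTOR signalling, had KDM2A on 2936, 3063 and 3051 bp and the mark on 872, 0 and 0 bp. Slc2a1, the glucose transporter, had 2192, 2211 and 2101 bp and no mark. Hif1a, the oxygen-regulated transcription factor, had 1275, 1075 and 697 bp and 0, 6.37 and 3.48% of its body marked. KDM2A was at 71 of 102 respiratory chain promoters (69.6%, with an island at 91), with 6 of 76 bodies marked. No gene of this list had KDM2A at the promoter with a marked body, beside 14.1% of all genes with a body. Both were found at 5 of 63 mitochondrial and 2 of 32 cytosolic ribosome genes with a body. Ndufs7, a subunit of complex I, had a fold of 3.02, 3.82 and 3.68, and Ndufaf3 was covered on 3426, 3461 and 4001 bp. Mitochondrial ribosome genes had KDM2A at 57 of 78 promoters (73.1%, with an island at 75), with the highest mean fold at Mrpl18 (4.08, 3.53 and 3.65), and cytosolic ribosome genes at 76 of 86. These 3 lists were of short genes, with median spans of 7565, 7771 and 3244 bp beside 16676 bp for all genes, and 7.89 to 9.52% of their bodies were marked, between the 5.61% of genes of 4 to 10 kb and the 15.0% of genes of 10 to 20 kb.

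The Hox genes had islands without KDM2A. Of 39 Hox genes, the developmental regulators that are silent in most adult cells, 34 had an island, yet KDM2A was called at 1 (Hoxb4) and the mark at 0 promoters and 0 of 11 bodies. Over all island genes KDM2A was at 63.0% and over genes without one at 7.09%. Olfactory receptor genes, of which 1 of 1134 had an island, had KDM2A at 1 promoter and the mark at 22. Replication-dependent histone genes had both, with KDM2A at 58 and the mark at 30 of 67 promoters, although they are near-identical copies packed in clusters and neighbours share peaks. Of 394 zinc finger genes, of which 249 had an island, KDM2A was at 176 (44.7%) and the mark at 84 promoters (21.3%), near the 39.2% and 15.6% of all genes. The members and lists were not independent of earlier results of these data, and no list was tested.

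**Figure D5:**
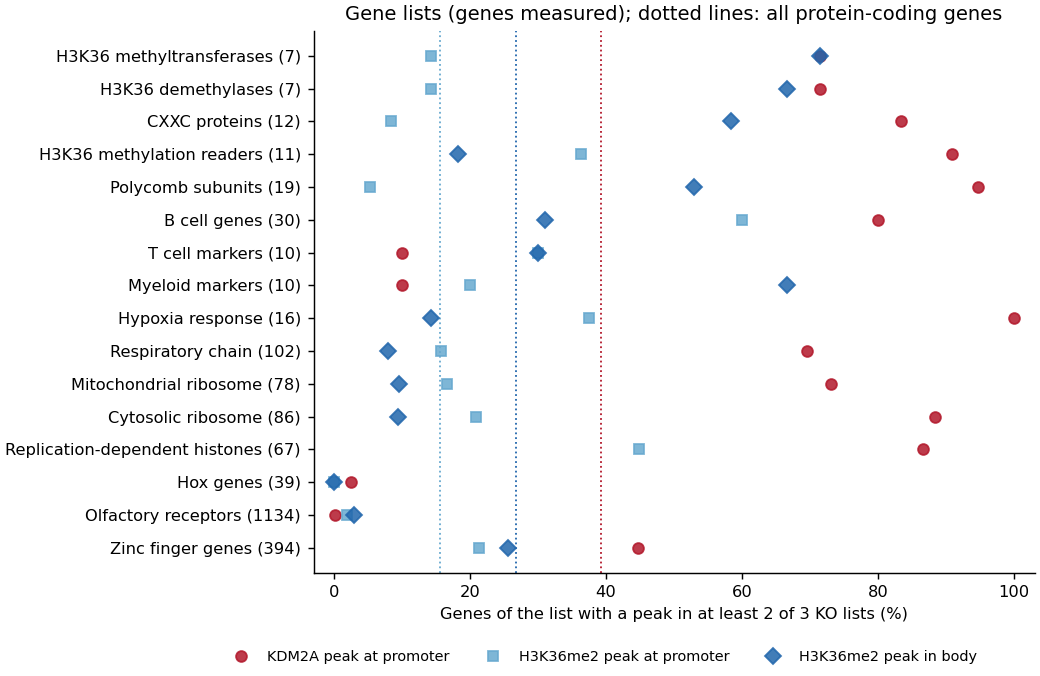
Percent of the genes of each list with a KDM2A promoter peak (circles), an H3K36me2 promoter peak (squares) or an H3K36me2 body peak (diamonds, out of genes with a body, for lists with at least 5 of them) in at least 2 of 3 KO lists. Dotted lines give all protein-coding genes (39.2, 15.6 and 26.8%). Hypoxia genes are at 100% for KDM2A and Hox genes at 2.56%.

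By chromosome, KDM2A followed gene density more closely than the mark did. Mean KDM2A coverage was highest on chromosomes 11 (1.42%), 17 (1.30%) and 19 (0.983%). H3K36me2 was highest on chromosomes 10 (3.78%) and 11 (3.25%). It was at 1.95% on gene-dense chromosome 19 and at 3.13% on chromosome 13, where KDM2A was at 0.338%. Across the 19 autosomes, Spearman's rho with coding genes per Mb was 0.87 for KDM2A and 0.25 for H3K36me2, given as a description of chromosomes that share libraries. The X chromosome held few peaks of either antibody in both sexes. H3K36me2 covered 0.0566, 0.0859 and 0.0645% of it and KDM2A 0.0130, 0.0470 and 0.0780%, and KDM2A was called at 57 of 948 X-linked promoters (6.01%) against 40.7% on the autosomes.

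Where the KO comparison differed from the same one in WT was examined last. The promoter/TSS share of KDM2A exceeded that of H3K36me2 by 43.2 ± 3.60 percentage points in KO and by 31.8 ± 4.28 in WT (SD, n = 3 each), and the 3 KO differences lay above the 3 WT ones (two-sided exact permutation test, p = 0.1, adjusted p = 0.167 over 5 measures). The WT KDM2A lists were longer, at 23372 to 29105 peaks. With lists trimmed to the same number of peaks the differences were 46.0 points in KO and 42.8 in WT, so that the gap between genotypes fell from 11.4 to 3.20 points. With −log10 q of at least 2 it was 13.6 points, from 63.5 in KO and 50.0 in WT. KDM2A peaks touched H3K36me2 in 23.9, 6.43 and 9.15% of cases in KO and 32.0, 29.0 and 30.5% in WT (exact permutation p = 0.1). With trimmed lists these were 5.02, 3.02 and 4.02% in KO and 10.7, 9.46 and 11.1% in WT. The WT H3K36me2 lists covered more of the genome, 4.29, 5.48 and 5.40%. Relative to that share, the log2 enrichment of the mark on KDM2A bases was 1.48 ± 0.34 in KO and 2.04 ± 0.26 in WT (exact permutation p = 0.1, n = 3 each). At island promoters the mark on the KDM2A peak was 0.345 ± 0.159 of its flank level in KO and 0.747 ± 0.192 in WT, without overlap (exact permutation p = 0.1, adjusted p = 0.36 over 12 measures). The highest KO value was 0.523 and the lowest WT value 0.583. WT H3K36me2 peaks were also wider, with medians of 858, 1019 and 939 bp against 661, 873 and 677 bp in KO. The part of peak width in this ratio was not tested, and the ratio was not recomputed with trimmed lists. At intergenic sites without an island the ratio to the flank was 1.25 in KO and 1.38 in WT, also without overlap (exact permutation p = 0.1, adjusted p = 0.36). Relative to the genome instead, the mark on KDM2A bases at these sites was 8.39 ± 0.66 in KO and 8.37 ± 1.05 in WT (exact permutation p = 1.0). The Mir155hg gene (chr16:84703167-84715245) carried 1, 1 and 2 KDM2A peaks in or within 5 kb of it in KO and 2, 1 and 4 in WT, which does not test the deletion.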

How the data were processed

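ChIP-seq peaks of KDM2A and H3K36me2 were used from 3 KO libraries each, with the 6 WT lists for comparison. Per the study's methods, the authors used nf-core/chipseq, with BWA alignment (GRCm38) and MACS2 peak calls. The lists used here were broad peaks, with a separate list for each library. The deposited fold of a peak is a ratio over background, and the deposited significance is −log10 of a p- or q-value, with a lowest −log10 q of 1.01 in the KO lists. The deposited score and the 6 input libraries were not used here. The caller's version and cut-off were not given in the sources used here.

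Genes and TSS came from GENCODE M21 (principal transcript per gene). CpG islands were computed on repeat-masked GRCm38.p6 by a running score of 17 per CpG and −1 per other base, with over 200 bp, at least 50% GC and observed over expected CpG above 0.6. Peaks overlapped when they shared 1 bp. A gene was called when at least 2 of 3 lists held a peak. Libraries were compared with two-sided exact permutation tests, or sign-flip tests over 3 replicate differences, with Benjamini-Hochberg adjustment. The functions were tested on simulated data.

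Named genes were the 8 with the highest mean KDM2A fold and no mark, the 8 over 20 kb with the highest lowest-of-3 body coverage, the 8 with the highest KDM2A fold where both overlapped in all 3 replicates, all H3K36 methyltransferases and demethylases, and up to 4 members of other lists or members a count turns on. Some genes chosen by these rules are not reported here. The members and lists were chosen with earlier results of these data known. Alternatives were equal numbers of the strongest peaks, −log10 q of at least 2, chromosomes 1 to 19, other windows and start sites, other overlap rules, leaving out each library and a replicate block. Python 3.11.15, numpy 2.4.6, pandas 2.3.3 and scipy 1.17.1 were used.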

Additional observations from a re-analysis of the deposited data

How the results depend on the processing

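Among values recomputed under another setting, 3 reversed. Others kept their direction but not their size. Taking an equal number of the strongest peaks reversed the percent of genes with a body peak, to 5.07 points higher for KDM2A. A minimum −log10 q of 2 reversed the median width, to 52.0 bp higher for KDM2A. Leaving out a replicate moved the KO against WT difference in the log2 ratio of bases covered between −0.0256 (without replicate 3) and 1.24, around 0.51. The cause was not tested. The minimum −log10 q of 2 lowered the KDM2A bases under H3K36me2 to 1.26% and the KDM2A peaks touching it to 2.73%, with fewer H3K36me2 peaks left. It also shrank the difference in peak number to −2037 and in bases to −2.30 Mb. Equal numbers of peaks lowered the bases under H3K36me2 from 6.90 to 2.16%. An equal number of peaks gave no value for peak number, which it fixes.

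Counts of genes with both KDM2A and H3K36me2 were 1498 when all 3 lists were required, 8214 with any list, 1456 with equal numbers and 407 with −log10 q of at least 2. KDM2A-only genes numbered 2601 with any list and 6728 with equal numbers. H3K36me2-only genes numbered 1263 with equal numbers and 828 with −log10 q of at least 2, which left 15495 with neither. Leaving out a library gave 2248 to 3385 genes with both and 1733 to 3937 with H3K36me2 only. Promoters with KDM2A above the mark in every list numbered 2485 with −log10 q of at least 2. Promoters with the mark above KDM2A numbered 127 in the narrower window, 34 with equal numbers, 6 with −log10 q of at least 2 and 418 to 818 without a library.

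Same-numbered KDM2A and H3K36me2 libraries did not deviate together (correlations of −0.034, 0.072 and −0.080 over bins of the genome), so the antibodies were compared without pairing. Overlaps, sign-flip tests and the antibody differences within a genotype did set same-numbered lists side by side, and their SDs and p-values rest on that numbering. With the replicate number as a block, the promoter/TSS difference of 43.2 points had an exact sign-flip permutation p of 0.25, the smallest possible, so neither design can pass a threshold of 0.05. Without H3K36me2 replicate 1 the KDM2A minus H3K36me2 difference in peak number was −23727 in place of −45529, and that in genes with a body peak −1.62 in place of −8.43 points. Depth is unknown, so numbers of peaks and bases cannot be scaled to reads.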

Other observations

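Peaks in the first 3.1 Mb of chromosome 9 numbered 9, 7 and 8 in the KDM2A lists, with a highest fold of 6.93, 5.87 and 6.66, and 2, 8 and 3 in the H3K36me2 lists, with 1.40, 6.68 and 1.63. The highest fold elsewhere was 5.36, 6.48 and 5.61 for KDM2A and 4.50, 3.82 and 4.26 for H3K36me2. Each KDM2A list held 3 peaks on the mitochondrial genome and no H3K36me2 list held any. Whether the peaks at these places mark binding was not tested. KDM2A and H3K36me2 sites were also spaced differently. The median distance from a KDM2A peak to the nearest H3K36me2 peak of the same replicate number was 1335, 11553 and 9338 bp, and from an H3K36me2 peak to the nearest KDM2A peak 29991, 33814 and 20389.5 bp. These values have no test.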
